A study of Mus musculus with 6 samples.

Results

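The genes described here encode the ligands, receptors, binding proteins and intracellular messengers of the FGF, BMP, TGF-beta, IGF, VEGF and PDGF growth factor families. They were chosen by a rule on the symbol, set with earlier results of these data known. It took the entries of the authors' deposited table of all genes whose symbol is a numbered or lettered FGF, BMP, TGF-beta, IGF binding protein, VEGF, PDGF or SMAD gene, starts with Bmpr or Igf1, or is one of a few numbered FGF and TGF-beta receptors. Bmp4 and Fgfr3 were left out by the same rule, so the receptor counts below do not cover Fgfr3. Family genes with no row under their symbol in that table, such as Igf1, Tgfb1, Bmp2, Smad2 and Smad4, are not covered. This gave 55 rows for 52 genes, out of 20414 rows for 18746 genes, and RefSeq (GRCm38.p6) lists an identifier for all 52. The genes were grouped by role, and 3 of them, Bmp1, Fgfr1op2 and Tgfb1i1, share a name with a family without being one of its ligands, receptors or messengers. Genes that work with these families but have other symbols are given after the members, from separate lists.

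The study set the left against the right entorhinal cortex, the cortical field that relays neocortical input to the hippocampus, in untreated wild-type C57BL/6 mice aged 6 months. Both groups share that genotype, strain and age, and the hemisphere is the only difference that the labels give. RNA of each side was run on 3 arrays of the type Affymetrix Mouse Gene 2.0 ST, labelled as biological replicates, 6 arrays in all, and the labels leave unsaid whether 2 samples of opposite sides share a mouse. Named genes carry a fold and an unadjusted p-value from the authors' comparison and no value per array, so no replicate mean or SD can be given for them, and the tissue label could not be checked against marker levels.

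Most growth factors of these families are secreted and act on receptor kinases in the membrane of nearby cells. FGF, IGF, VEGF and PDGF ligands bind tyrosine kinase receptors, whereas BMP and TGF-beta ligands bind paired serine/threonine kinase receptors that phosphorylate SMAD proteins, which then enter the nucleus and bind DNA. In cortex, FGF and BMP gradients help to pattern the embryonic areas, and in the adult the families act on glia, vessels, meninges and neurons.

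Promoter sequence is shown for the members past an unadjusted p of 0.05 that had a promoter entry, Smad5 and Vegfc, and for the members with the largest fold to each side, Tgfb2 and Bmp8b. Each is the stretch of 250 bases before an annotated start of the gene in RefSeq, build GRCm38.p6, written 5′ to 3′ on the strand of the gene. Smad5 had 3 annotated starts, of which the most upstream is shown, and the other 3 genes had 1 each. Capitals mark matches, on either strand, to the 5-base SMAD element CAGAC, the GC-rich SMAD element GGCGCC, the GC box GGGCGG and the TATA box TATAAA, and no base of these windows lay in both a GC box and a SMAD element. The positions are chr13:56702760-56703009 on the plus strand for Smad5, chr8:54077282-54077531 on the plus strand for Vegfc, chr1:186705990-186706239 on the minus strand for Tgfb2 and chr4:123104911-123105160 on the plus strand for Bmp8b.
Smad5: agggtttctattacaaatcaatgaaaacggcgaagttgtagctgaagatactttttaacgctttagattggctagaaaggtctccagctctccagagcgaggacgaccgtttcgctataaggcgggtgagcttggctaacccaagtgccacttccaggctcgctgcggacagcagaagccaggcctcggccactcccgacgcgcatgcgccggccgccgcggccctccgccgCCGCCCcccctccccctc
Vegfc: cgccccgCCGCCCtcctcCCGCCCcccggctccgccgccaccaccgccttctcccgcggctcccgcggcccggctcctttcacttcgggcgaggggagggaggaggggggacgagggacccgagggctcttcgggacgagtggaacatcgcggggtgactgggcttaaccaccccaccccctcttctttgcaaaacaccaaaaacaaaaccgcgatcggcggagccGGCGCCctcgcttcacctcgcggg
Tgfb2: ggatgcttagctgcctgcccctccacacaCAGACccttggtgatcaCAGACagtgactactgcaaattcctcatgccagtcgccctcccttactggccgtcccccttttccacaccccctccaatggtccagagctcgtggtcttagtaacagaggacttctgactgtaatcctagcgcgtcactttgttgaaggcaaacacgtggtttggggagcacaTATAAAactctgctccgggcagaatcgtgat
Bmp8b: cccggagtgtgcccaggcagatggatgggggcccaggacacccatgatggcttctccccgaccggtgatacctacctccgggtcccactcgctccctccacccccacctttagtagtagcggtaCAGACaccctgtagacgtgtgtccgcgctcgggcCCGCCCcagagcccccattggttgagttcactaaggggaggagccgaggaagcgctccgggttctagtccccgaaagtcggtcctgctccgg
The Tgfb2 window held 2 CAGAC elements and a TATA box, and its GC content was 53.6%. The Vegfc window held 1 GGCGCC element and 2 GC boxes at a GC content of 71.6%, the Smad5 window 1 GC box at 60%, and the Bmp8b window 1 CAGAC element and 1 GC box at 65.2%. Over the 40 members with a promoter entry, 20 (50%) had a CAGAC match in at least 1 window, against 45.8% of the 27025 genes with an entry. In this paragraph all genes means those 27025, not the 18746 of the authors' deposited table. The 40 members had 54 windows and the 27025 genes had 32851, and neither difference was adjusted for. A GGCGCC match was found for 7 of the 40 (17.5%, against 10.8% of all genes), a GC box for 25 (62.5%, against 35.4%) and a TATA box for 7 (17.5%, against 14.3%). The palindrome GTCTAGAC was found for 0 of the 40 members and for 0.2% of all genes. The median GC content was 63% for the members and 52.4% for all genes, and the shares of matches were not adjusted for it. These matches describe letters, not bound sites.

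The comparison asked which of these genes differ between the hemispheres. All 52 lay within 1.17-fold, and none passed Benjamini-Hochberg adjustment over the 18746 genes of the authors' deposited table, where the adjusted p of the members ran from 0.6 to 0.998. At an unadjusted p under 0.05 there were 3, namely Smad5 and the receptor gene Fgfr1 stronger on the right and the lymphatic growth factor gene Vegfc stronger on the left, by the authors' deposited table. That is 5.77% of the members, against 7.87% of all genes of the authors' deposited table called by the same rule (3.77% leaning left and 4.10% leaning right). Under a p of 0.01 there were 0 members, against 1.58% of all genes, and 2 members (3.85%) combined a p under 0.05 with a fold of at least 1.1, against 6.40%. The members' shares are below that background, so the counts are no result about these families. The median size of the fold was 1.04 for the members and 1.04 for all genes, and 8 members (15.4%) reached 1.1-fold, against 14.0% of all genes, by the authors' deposited table. A positive fold was taken to mean more signal on the left. That coding is likely, because the table is headed left versus right and because 9 genes there and 9 rows above the median signal in the per-array table lay over 2-fold toward the right and 0 toward the left.

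**Figure D1:**
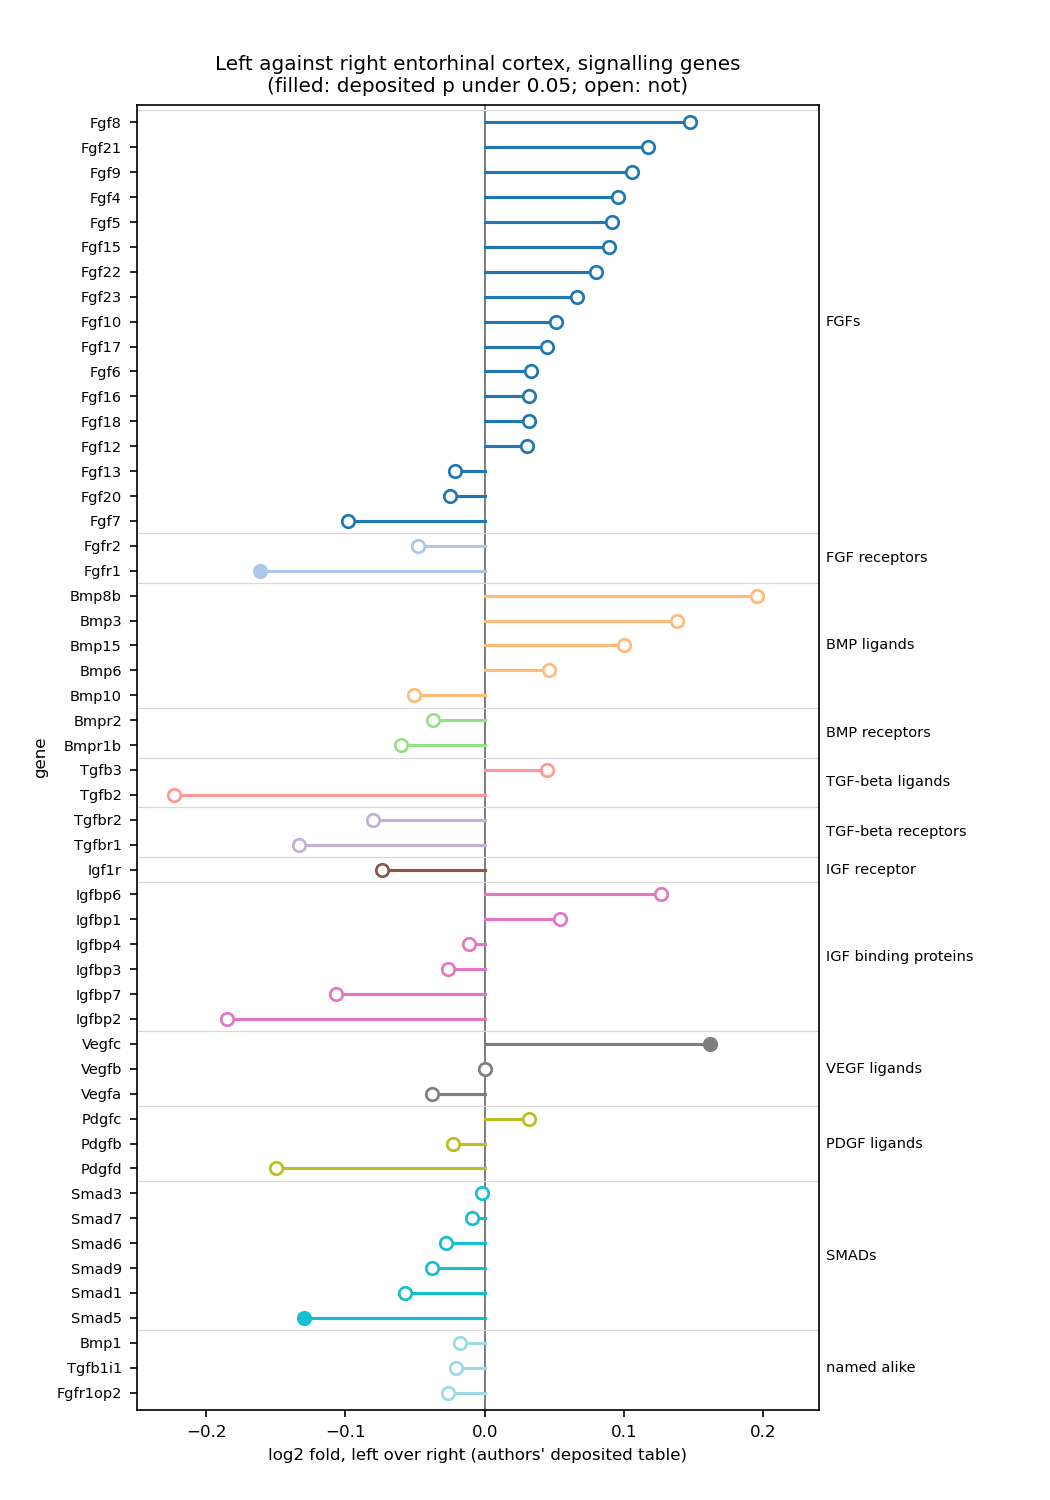
Log2 fold of the 52 genes, left over right, by family; each point is 1 gene of the authors' deposited table, filled where the deposited p was under 0.05, and no error is drawn because the table gives none. The points to the right of 0 (stronger on the left) are mostly FGFs and BMP ligands, and all 7 receptor and 6 SMAD genes of the set lie to the left of 0 (stronger on the right).

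The FGFs lay mostly on the left side of the comparison. Of 17 genes 14 leaned left and 3 leaned right (median log2 fold 0.05), and of the 15 that are secreted ligands 13 leaned left (median 0.07), by the authors' deposited table, where 54.0% of all genes were stronger on the left and the median of all genes was 0.01. None had an unadjusted p under 0.05, and the group was formed with these values known, so no test of its direction is given. Signal levels are not given for these 17 genes. Of the unnamed rows of the per-array table, 55.9% at or below the median signal were stronger on the left, against 48.5% above it. Whether the lean of the FGFs follows signal level was not tested. Fgf8, which patterns the embryonic forebrain from its front end, had the largest fold of these 17 genes, 1.11-fold stronger on the left (p = 0.0906, adjusted p = 0.68) by the authors' deposited table. Its relatives of the FGF8 subfamily, Fgf17 and Fgf18, were 1.03-fold and 1.02-fold stronger on the left by the authors' deposited table. The FGF4 subfamily, paracrine ligands of the embryo, also lay on the left with Fgf4 at 1.07-fold (p = 0.104), Fgf5 at 1.07-fold and Fgf6 at 1.02-fold by the authors' deposited table.

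The endocrine FGFs, which circulate as hormones and need a klotho co-receptor, had folds to the left in each of their 3 genes. Signal levels are not given for these genes, so whether they were expressed above background was not tested. Fgf21, a fasting hormone of the liver, was 1.08-fold stronger on the left (p = 0.253), Fgf23, the phosphate hormone of bone, 1.05-fold (p = 0.187) and Fgf15, the bile acid hormone of the gut, 1.06-fold (p = 0.193 from the mean of its 2 rows) by the authors' deposited table. Among the FGF9 subfamily, Fgf9, a ligand made by neurons, was 1.08-fold stronger on the left (p = 0.136), Fgf16 1.02-fold stronger on the left and Fgf20 1.02-fold stronger on the right by the authors' deposited table. The FGF7 subfamily acts from mesenchyme on epithelium, and at inhibitory and excitatory synapses in the brain. Of its genes Fgf22 was 1.06-fold stronger on the left (p = 0.154), Fgf10 1.04-fold stronger on the left over 2 rows and Fgf7 1.07-fold stronger on the right (p = 0.185) by the authors' deposited table. Fgf7 had the largest fold to the right among these 17 genes. The intracellular FGFs, which are not secreted and bind voltage-gated sodium channels, differed least, with Fgf12 at 1.02-fold to the left and Fgf13 at 1.02-fold to the right by the authors' deposited table.

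The FGF receptors in the set lay on the opposite side of the comparison from most FGFs. Fgfr1, a receptor of neurons and neural progenitors, was 1.12-fold stronger on the right (p = 0.0323, adjusted p = 0.624), and Fgfr2, a receptor of glia and epithelia, 1.03-fold stronger on the right (p = 0.461), by the authors' deposited table. A larger fold than that of Fgfr1, in either direction, was found for 10.1% of all genes. The name-alike Fgfr1op2, called after a gene fusion with FGFR1, was 1.02-fold stronger on the right (p = 0.534) by the authors' deposited table.

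BMP ligands leaned to the left, with 4 of 5 genes stronger on the left, against 54.0% of all genes, and none under an unadjusted p of 0.05. Bmp8b, known for its role in heat production, had the largest fold to the left of all 52 members, 1.14-fold (p = 0.0853, adjusted p = 0.676), by the authors' deposited table, and 6.14% of all genes had a larger fold in either direction. Bmp3, which can oppose other BMPs, was 1.101-fold stronger on the left (p = 0.151), Bmp15, the oocyte factor, 1.07-fold (p = 0.353) and Bmp6, known for iron control, 1.03-fold (p = 0.828) by the authors' deposited table. Bmp10, a heart ligand, was 1.04-fold stronger on the right (p = 0.528) by the authors' deposited table. The BMP receptors in the set leaned to the right. Bmpr1b, a type I receptor, was 1.04-fold stronger on the right (p = 0.388), and the type II receptor gene Bmpr2 1.03-fold over its 2 rows (p = 0.607 from their mean), by the authors' deposited table. Bmp1, a metalloproteinase that trims procollagen and the BMP antagonist chordin, was 1.01-fold stronger on the right (p = 0.82) by the authors' deposited table.

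Tgfb2, a TGF-beta ligand made by neurons and glia, had the largest fold of all 52 members. It was 1.17-fold stronger on the right (p = 0.0718, adjusted p = 0.662) by the authors' deposited table, and 4.3% of all genes had a larger fold in either direction. Its paralogue Tgfb3 was 1.03-fold stronger on the left (p = 0.452) by the authors' deposited table. Both TGF-beta receptors in the set lay on the side of Tgfb2. The type I receptor gene Tgfbr1 was 1.097-fold stronger on the right (p = 0.0616, adjusted p = 0.651) and the type II receptor gene Tgfbr2 1.06-fold (p = 0.253) by the authors' deposited table. Tgfb1i1, a focal adhesion adaptor named for its induction by TGF-beta, was 1.01-fold stronger on the right (p = 0.671) by the authors' deposited table.

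Each of the 6 SMAD genes in the set leaned right, as 46.0% of all genes did, but the sizes were small (median log2 fold -0.03) by the authors' deposited table. Smad2 and Smad4 had no row there. Smad5, a messenger of BMP receptors, had the smallest p of all 52 members and was 1.09-fold stronger on the right (p = 0.0157, adjusted p = 0.6) by the authors' deposited table. The other BMP receptor SMADs, Smad1 and Smad9, were 1.04-fold (p = 0.339) and 1.03-fold (p = 0.449) stronger on the right by the authors' deposited table. Smad3, a messenger of TGF-beta receptors, was at a log2 fold of 0.00 (p = 0.959), and the inhibitory genes Smad6 and Smad7, which feed back on the receptors, were 1.02-fold (p = 0.598) and 1.01-fold (p = 0.858) stronger on the right by the authors' deposited table. Counting the 7 receptor genes with the 6 SMADs, 13 of 13 had a fold to the right, 2 of them at an unadjusted p under 0.05 (against 7.87% of all genes), while 21 of the 28 secreted ligand genes (20 after centring on the median of all genes, which left the 13 as they were) had a fold to the left by the authors' deposited table. Receptor lists outside the set, which also hold co-receptor, decoy and receptor-like genes, had folds to both sides. There were 4 genes to each side for BMP, and 1 to each side for TGF-beta and for PDGF (Pdgfra right, Pdgfrl left). The FGF co-receptor list had 5 to the left and 4 to the right, and the VEGF list 1 to the left and 2 to the right. The IGF list, which includes the ligand gene Ins2, had 2 to each side, all by the authors' deposited table. The klotho co-receptor gene Kl was listed with the choroid plexus markers and is not in that FGF count. It was 2.82-fold stronger on the right (p = 0.0268, adjusted p = 0.608) by the authors' deposited table. The receptor, SMAD and ligand roles were counted after the values were seen, the genes share the same 6 arrays and no test of the split was made.

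**Figure D2:**
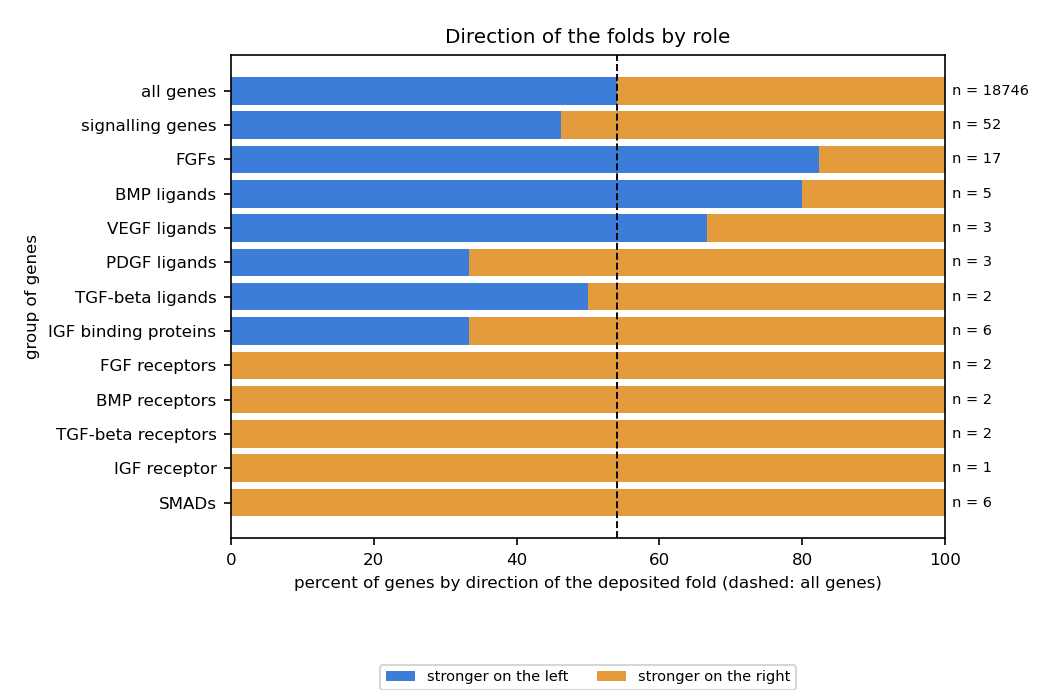
Share of genes, in percent, whose deposited fold was stronger on the left (blue) or on the right (orange), by role, with the number of genes at the end of each bar. The dashed line marks the 54.0% of all genes that were stronger on the left; FGFs reach 82.4%, and the bars of the receptors in the set and of the SMADs hold no gene stronger on the left.

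In the IGF family, the receptor gene Igf1r, whose kinase promotes growth and survival, was 1.05-fold stronger on the right (p = 0.146) by the authors' deposited table. The IGF binding proteins, which carry IGFs outside cells and hold them from the receptor, divided into 4 leaning right and 2 leaning left. Igfbp2, a binding protein abundant in choroid plexus and meninges, was 1.14-fold stronger on the right (p = 0.125), and Igfbp7, a binding protein of vessels with low affinity for IGFs, 1.08-fold (p = 0.052, adjusted p = 0.635), by the authors' deposited table. Igfbp6, which prefers IGF2, was 1.09-fold stronger on the left (p = 0.108) and Igfbp1, a liver protein, 1.04-fold (p = 0.6) by the authors' deposited table. Igfbp3, the main carrier in serum, and Igfbp4 were 1.02-fold and 1.01-fold stronger on the right (p = 0.759 and 0.783) by the authors' deposited table. These genes thus lay on both sides, with the largest fold on the right.

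Of the angiogenic ligands, Vegfc, which drives lymphatic growth through VEGF receptor 3, was the single member with an unadjusted p under 0.05 to the left. It was 1.12-fold stronger on the left (p = 0.0366, adjusted p = 0.633), Vegfa, the main ligand of blood vessel growth, was 1.03-fold stronger on the right (p = 0.337), and Vegfb was at a log2 fold of 0.00 (p = 0.994), by the authors' deposited table. The PDGF ligands act on mural cells and glial precursors. Pdgfd was 1.11-fold stronger on the right at an unadjusted p of 0.375, Pdgfb 1.02-fold stronger on the right (p = 0.578) and Pdgfc 1.02-fold stronger on the left (p = 0.542) by the authors' deposited table. Pdgfd and Fgfr1 thus had folds of near size with very different p-values.

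**Figure D3:**
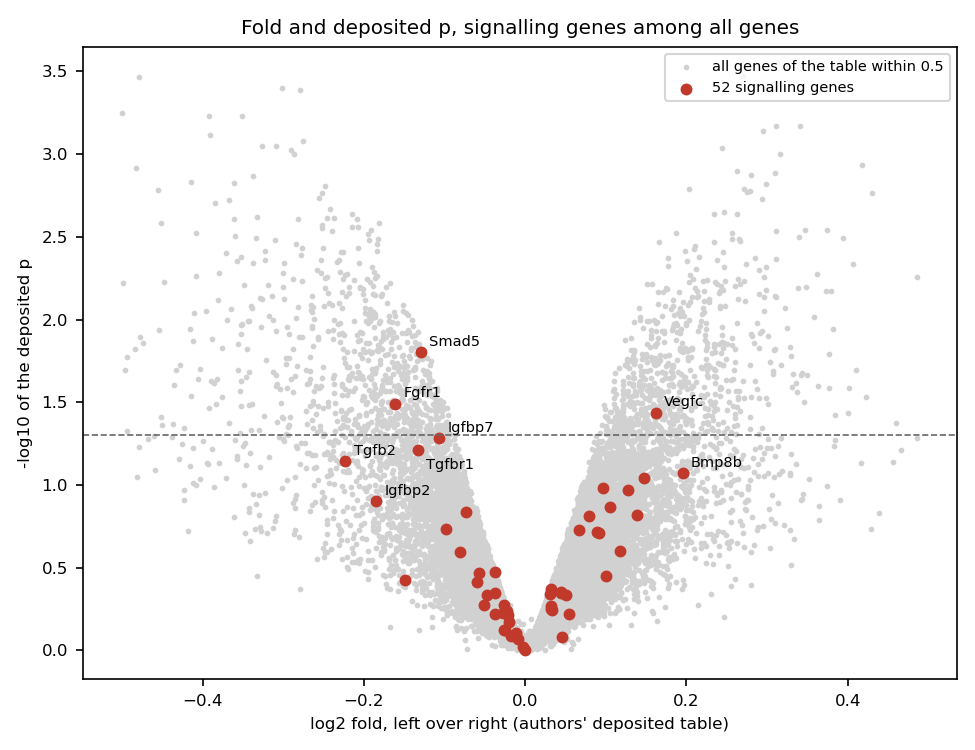
Log2 fold, left over right, against -log10 of the deposited p for the 52 signalling genes (red) and for all genes of the authors' deposited table with a log2 fold within 0.5 (grey), averaged where a gene has several rows; the dashed line marks a p of 0.05. The 3 genes above the line are Smad5, Fgfr1 and Vegfc, and the red points lie within the spread of the grey ones.

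Genes that work with these families but fall outside the rule were listed by role, with earlier results of these data known. Of 139 listed, 108 were in the authors' deposited table. Of these 6 (5.56%) had an unadjusted p under 0.05, 2 leaning left and 4 leaning right, and 0 passed adjustment, so this share too was below the 7.87% of all genes. The listed extracellular BMP antagonists and modulators were stronger on the left in 13 of 16 genes (12 after that centring), against 54.0% of all genes, with a median log2 fold of 0.05, by the authors' deposited table. No test of that lean was made. The exception in size was Sostdc1, an antagonist also made by the choroid plexus, at 2.01-fold stronger on the right (p = 0.0213), whereas Chrdl1, related to chordin, was 1.17-fold stronger on the left (p = 0.156), by the authors' deposited table. Among BMP-related ligands Gdf7, the signal of the embryonic roof plate, was 1.08-fold stronger on the left (p = 0.03) and Gdf9 1.07-fold (p = 0.136) by the authors' deposited table. The BMP target gene Id4, an inhibitor of neural differentiation factors, was 1.13-fold stronger on the right (p = 0.0257) and the target Msx1 1.09-fold stronger on the left (p = 0.223) by the authors' deposited table. The BMP receptor and decoy genes Acvr2b and Bambi were 1.06-fold and 1.07-fold stronger on the left (p = 0.105 and 0.306) by the authors' deposited table.

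Downstream of the FGF receptors, the target transcription factors differed little. Etv4 and Etv1 had log2 folds of -0.01 and 0.00, and the largest folds of the intracellular regulators were those of the adaptor Frs2 (1.03-fold, p = 0.369) and the ubiquitin ligase Cbl (1.03-fold, p = 0.432), both to the right, by the authors' deposited table. Outside the cell, the heparan sulfate proteoglycan gene Sdc4 was 1.11-fold stronger on the right (p = 0.0327) and Flrt3 1.03-fold stronger on the left (p = 0.335) by the authors' deposited table. The FGF carrier Fgfbp1 was 1.24-fold stronger on the left (p = 0.0898) and Fgfbp3 1.03-fold stronger on the right (p = 0.533) by the authors' deposited table. The listed FGF pathway genes, which leave out Kl, were thus stronger on the right in 15 of 25 cases (17 after centring), against 46.0% of all genes. Of the 25, 1 had an unadjusted p under 0.05, against 7.87% of all genes.

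Among relatives of TGF-beta, Inhbe, an activin subunit of the liver, was 1.17-fold stronger on the left (p = 0.00779, adjusted p = 0.597) and Mstn, encoding myostatin, 1.08-fold stronger on the right (p = 0.14) by the authors' deposited table. The latency protein genes Ltbp2 and Ltbp3 were 1.07-fold stronger on the left (p = 0.0877 from the mean of 2 rows) and 1.06-fold stronger on the right (p = 0.197) by the authors' deposited table. The endothelial co-receptor gene Eng was 1.06-fold stronger on the right (p = 0.0715), and the activin receptor gene Acvr1b 1.04-fold stronger on the left (p = 0.247), by the authors' deposited table. Skil, which represses SMAD targets, was 1.06-fold stronger on the left (p = 0.0625) and the target Ctgf 1.06-fold over 2 rows (p = 0.309 from their mean) by the authors' deposited table. The TGF-beta pathway genes divided into 13 leaning left and 14 leaning right.

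In the insulin and IGF pathway, Ins2, the ancestral insulin gene of the mouse, was 1.13-fold stronger on the right (p = 0.0272) and the insulin-receptor-related gene Insrr 1.04-fold stronger on the left (p = 0.478) by the authors' deposited table. The adaptor gene Irs4 had 2 rows that disagreed in size, 1.39-fold (p = 0.00678) and 1.01-fold (p = 0.779) stronger on the right, with a mean of 1.19-fold (p = 0.135 from the mean), by the authors' deposited table. Grb10, another adaptor gene, was 1.06-fold stronger on the right (p = 0.131) by the authors' deposited table. The proteases Htra3 and Htra1 were 1.12-fold stronger on the left (p = 0.106) and 1.03-fold stronger on the right (p = 0.365) by the authors' deposited table. Of the VEGF and PDGF lists, Nrp2 was 1.05-fold, Nrp1 1.02-fold and Pdgfra 1.06-fold stronger on the right (p = 0.428, 0.82 and 0.121), by the authors' deposited table. The receptor-like gene Pdgfrl was 1.03-fold and the ligand Pgf 1.02-fold stronger on the left (p = 0.633 and 0.378), by the authors' deposited table.

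Choroid plexus markers had larger folds than any of the 52 signalling genes. Over all genes, 54.0% were stronger on the left, 46.0% on the right and 7.87% had an unadjusted p under 0.05. The choroid plexus list was stronger on the right in 7 of 7 genes, 5 at an unadjusted p under 0.05, with log2 folds from -2.48 (Ttr) to -0.66 (Aqp1) and a median of -1.05 by the authors' deposited table. The meninges and fibroblast list was stronger on the left in 10 of 12 genes, with a median of 0.20, 1 gene at an unadjusted p under 0.05 (Slc47a1, 1.59-fold, p = 0.0308) and Prg4 at 1.54-fold (p = 0.0545), by the authors' deposited table. Astrocyte markers were stronger on the right in 7 of 8 genes (median -0.07, 2 at an unadjusted p under 0.05, Slc7a10 at 1.18-fold), and mural cell markers in 6 of 7 (median -0.02, none under 0.05), by the authors' deposited table. Principal neuron markers divided 3 to 2 between left and right (median 0.04), with 1 at an unadjusted p under 0.05, Tbr1 at 1.13-fold stronger on the left (p = 0.0346), by the authors' deposited table. Endothelial markers divided 3 to 5 (median -0.02), interneuron markers 1 to 3 (median -0.06) and the 3 blood genes were all to the left (median 0.16), each with 0 under 0.05, by the authors' deposited table. Marker levels per side are not given for named genes, and fewer cells of a type cannot be told apart from less RNA per cell in whole tissue. The part of these tissues in the folds of Igfbp2, Sostdc1, Vegfc or any other gene above was not tested.

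**Figure D4:**
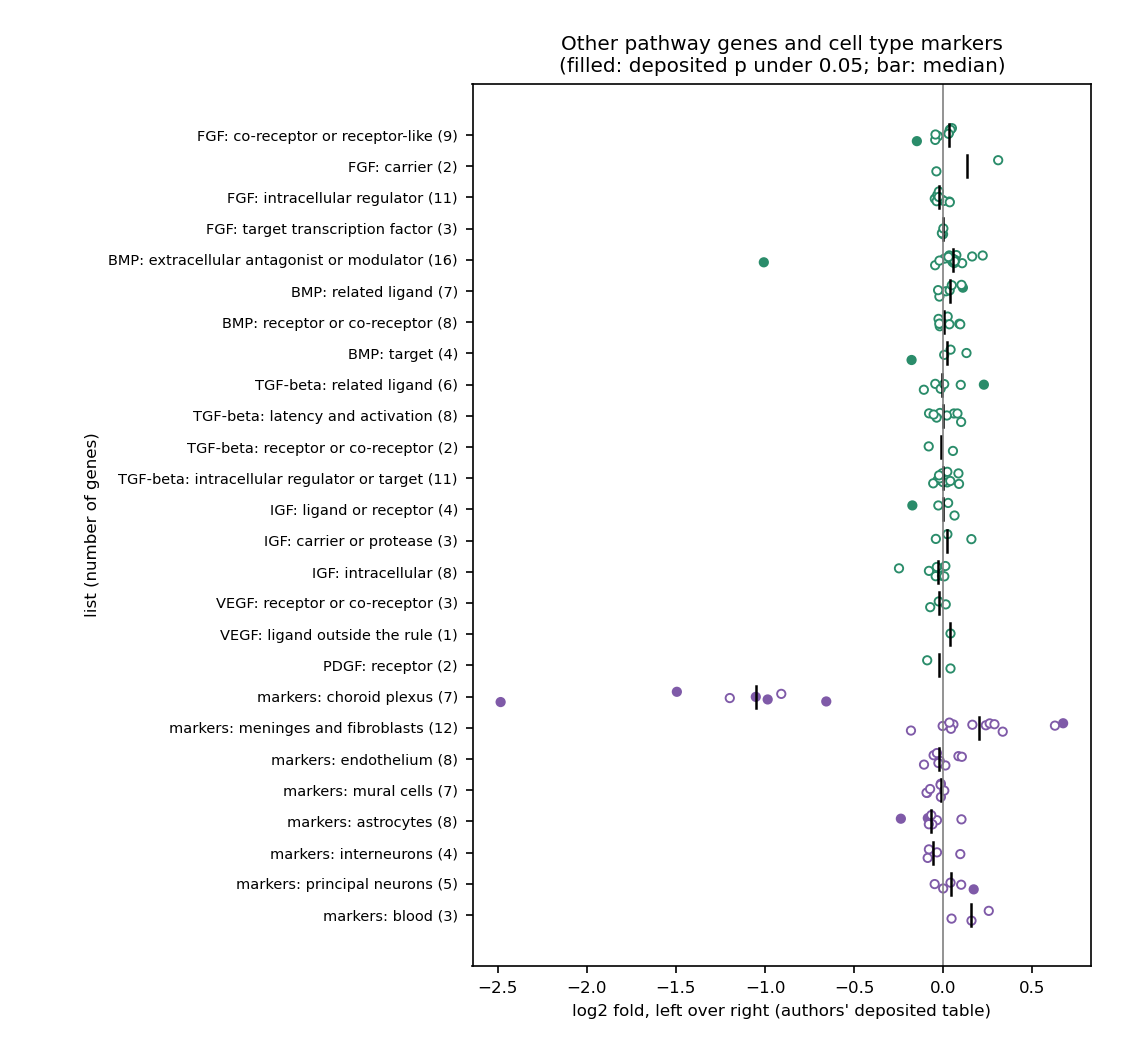
Log2 folds, left over right, of the other pathway genes (green) and of cell type markers (purple), 1 point per gene of the authors' deposited table, filled where the deposited p was under 0.05, with a bar at each list's median. The choroid plexus markers, which include the klotho gene Kl, reach -2.48, whereas all listed pathway genes except Sostdc1 lie between -0.25 and 0.31.

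The per-array table, whose rows carry no gene names here, gives the precision that 3 arrays per side allow. Array medians of the log2 signal were 7.24 to 7.28. Over the 20672 rows above the median signal, the 95% interval of the left-right difference extended a median of 0.14 to either side on the log2 scale (quartiles 0.11 and 0.19), which is 1.1-fold. Over all rows, dim ones included, that median was 0.18. Most members had folds smaller than 1.1-fold, though the intervals of the members themselves are not given. By limma, 0 of 41345 rows passed adjustment at 0.05, with 3023 at an unadjusted p under 0.05. Of rows above the median signal 48.5% were stronger on the left, and of the dimmer rows 55.9%. The signal level of each member is not given, so whether the lean of the ligand genes to the left follows signal level was not tested.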

How the data were processed

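Total RNA from the left and right entorhinal cortex was hybridised to Affymetrix arrays, 3 per side, per the labels' protocols. The table of all genes that the authors deposited pairs each row with a p-value and with a signed fold, per the file headers. The authors made this fold, treated as a score, with Ingenuity iReport, per the series description, by a test not stated there. It skips the span between -1 and 1, so ratios under 1 appear as negative inverses. The authors also deposited log2 signals for 41345 unnamed rows. Their log2 scale was read from the values, and their summarization and normalization were not stated.

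Members and lists were chosen with earlier results of these data known. Each fold was converted to log2 of left over right. Genes with several rows (1111, 3 of them members) were averaged, and their p comes from the mean signed z. Adjusted p-values are Benjamini-Hochberg over all 18746 genes. Named were all members, and of each pathway list the genes under a p of 0.05 and those with the largest folds. Unnamed rows were fitted with limma 3.58.1 (lmFit and eBayes, R 4.3.3), tested on simulated data. Its p-values set the left-right difference against the spread between samples of the same side. That spread may be technical in part, and the number of arrays limits precision. Promoter windows came from RefSeq (GRCm38.p6). Figures used matplotlib 3.10.9.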

Additional observations from a re-analysis of the deposited data

How the results depend on the processing

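The count of 3 members at a deposited p under 0.05 was 0 at 0.01 and 8 at 0.1 (3 toward the left, 5 toward the right, 15.4% of the members against 14.4% of all genes), the second threshold being chosen after seeing the data; it was 2 with a fold of at least 1.1 required, and 3 under the other alternatives run. Members with a fold toward the left numbered 22 to 24 in all settings run. Centring the folds on the median of all genes turned 1 of 52 directions, that of Vegfb, to a log2 fold of -0.0064. The 6 pathway genes became 7 when the smallest p of several rows was taken, the added gene being Irs4. No member and no row of the per-array table passed adjustment in any setting run: quantile normalization, rows above the median signal alone, an intensity trend with robust eBayes, the replicate number as a block (limma, 0 rows, 2790 at an unadjusted p under 0.05 against 3023 without it), and each array left out in turn (0 rows each time). Same-numbered left and right arrays had deviations correlated at 0.15, 0.01 and 0.13, and differently numbered ones at -0.15 to 0.02. With 3 arrays per side, whose deviations sum to 0, these values cannot settle whether the numbers mark pairs. The main fit used no pairs, and the fit with the replicate number as a block is given above. Normalization, the replicate block and leaving out an array could not be run for named genes, whose values per array are not given.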
